A study of Mus musculus with 2 samples.

Results

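The genes described here are 9 B cell identity genes, chosen by symbol and found in both deposited lists of 24346 gene symbols. They are Cd79a, Cd79b and Blk of the B cell receptor, the surface proteins Ms4a1, Cd22, Cr2 and Fcer2a, and the transcription factors Pax5 and Ebf1. They were measured in sorted splenic and lung Tregs, so the values below are those of B cell genes in a sort meant for T cells. All mice were FDG mice (genotype Foxp3-DTR-GFP), in which GFP and the diphtheria toxin receptor are made from the endogenous Foxp3 locus, so that GFP marks Foxp3-expressing cells. Every mouse was given 50 μg of BLM into the trachea at 10 to 16 weeks of age, and on day 15 spleens and lungs were sorted for GFP+CD4+ cells. A library was made from each tissue, with 3 mice pooled in it, and neither untreated mice nor other cells were analysed here. The sources used here name no exclusion of B cells for this sort. Expression is given as FPKM, which corrects the fragments assigned to a gene for transcript length and for the size of the library, so that levels of different genes can be set side by side.

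A B cell senses antigen with membrane immunoglobulin, which carries no signal by itself and depends on the CD79 heterodimer beside it. Kinases of the Src family such as Blk phosphorylate the tails of that heterodimer, and coreceptors raise or lower the threshold for a response. Ebf1 commits progenitors to the B lineage and switches on Pax5, and Pax5 then keeps B cells B cells by sustaining genes such as Cd79a while silencing those of other lineages. Conventional T cells do not run this program, and for this reason these genes serve as markers of B cells in a sort of T cells.

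With 1 library for spleen and 1 for lung, nothing below could be checked against a replicate, and p-values are not given. The FPKM summed to 599633 in spleen and 808853 in lung. Read counts were not part of the lists, but low values fell on steps that gave the worth of 1 read, from which 9647007 reads were estimated in spleen and 12631242 in lung. Cd3e, a chain of the T cell receptor complex, had 513 FPKM in spleen and 369 in lung, and Foxp3 had 18.7 and 41.8. Ratios of lung to spleen were taken after FPKM under 0.1 had been set to 0.1. The 95% intervals printed below come from estimated reads (exact Poisson for levels, exact binomial for ratios). They cover counting error only and not differences between mice. PCR copies of a molecule are counted separately, so the intervals can be too narrow even for counting error.

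All 9 genes were listed above 0 in both libraries and all 9 were lower in lung than in spleen, although Ebf1 only 1.02-fold and not when the libraries were scaled to T cell genes. More than 2-fold lower values were seen for 6 of the 9 genes (Cd79a, Blk, Ms4a1, Cr2, Fcer2a and Pax5), whereas 11.7% of all listed genes were more than 2-fold lower in lung. That count depended on the scale. It was 3 with a pseudocount of 1 FPKM, when 6.06% of all genes were past 2-fold, and 2 (Fcer2a and Pax5) relative to Cd3e, when 8.64% were. Among the 10909 genes with a mean level in the range of the 9 genes, from 0.471 to 75.1 FPKM, the share more than 2-fold lower in FPKM was 17.5%, and 51.5% were lower in lung to any extent. None of the 9 genes was more than 2-fold higher in lung, against 11.0% of all listed genes and 18.5% of those in the same range of level. More than 4-fold lower were Fcer2a and Pax5, 2 of 9, against 5.39% of all listed genes, and 0 of 9 were more than 20-fold apart in either direction, against 2.79%. The median log2 ratio of lung to spleen was -1.11 for the 9 genes and -0.03 for the genes in their range of level. Just past 2-fold lay Cr2, with a log2 ratio of -1.07, and the nearest gene within 2-fold was Cd22, at -0.63. In bulk libraries such as these, fewer B cells and less of each RNA per B cell cannot be told apart. RNA of other cells and the scaling between the libraries also enter each ratio, and their parts cannot be separated here either.

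**Figure D1:**
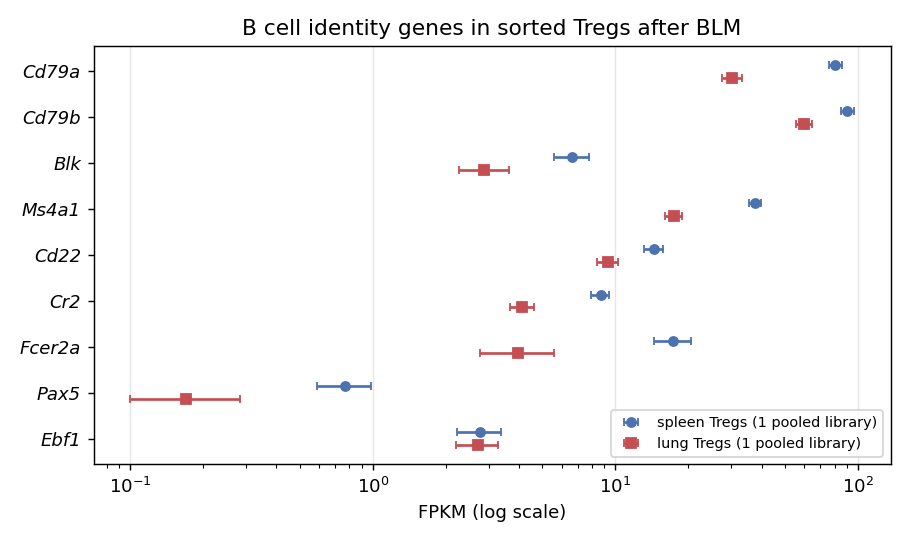
FPKM (log scale) of each B cell identity gene in the splenic (circles) and the lung (squares) library of sorted Tregs, with exact 95% Poisson intervals from estimated reads, which cover counting error only. The splenic value lies to the right of the lung value for 8 genes without overlap of the intervals, and for Ebf1 the points nearly coincide.

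The CD79 genes were the most abundant. Cd79a, which encodes the Igα chain that signals for the receptor, lies at chr7:24897497-24901858 of GRCm38 (mm10) and had 80.4 FPKM in spleen and 30.4 in lung. This is 2.65-fold lower in lung, a log2 ratio of -1.41 with an interval from -1.57 to -1.24. Its partner Cd79b (Igβ, chr11:106311341-106314562) was at 90.4 and 59.7 FPKM, only 1.51-fold lower, with a log2 ratio of -0.60 (-0.74 to -0.46). The chains of the heterodimer were thus nearly level in spleen, where Cd79b reached 1.12 times Cd79a, and unequal in lung, where it reached 1.97 times Cd79a. Such a quotient within a library does not depend on how the libraries were scaled to each other. Blk (chr14:63372837-63417187), the Src-family kinase, had 6.60 FPKM in spleen and 2.89 in lung, with a log2 ratio of -1.19 and an interval (-1.62 to -0.78) that includes the ratio of Cd79a but not that of Cd79b.

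Because Cd79a is a textbook target of Ebf1 and Pax5, and Cd22 is among the genes that were less than 2-fold lower, the 250 bases before a RefSeq start of each are shown (RefSeq, GRCm38.p6, 5′ to 3′ on the strand of the gene). Capitals mark matches to the EBF1 motif CCCNNGGG, to a looser spelling of it, CNCNNGGGA, and to the PU.1 motif GAGGAA, each read on both strands. The Cd79a sequence is chr7:24897247-24897496 (plus strand), and the Cd22 sequence is chr7:30879029-30879278 (minus strand). The Cd22 start lies inside the span of the gene given further on.
Cd79a: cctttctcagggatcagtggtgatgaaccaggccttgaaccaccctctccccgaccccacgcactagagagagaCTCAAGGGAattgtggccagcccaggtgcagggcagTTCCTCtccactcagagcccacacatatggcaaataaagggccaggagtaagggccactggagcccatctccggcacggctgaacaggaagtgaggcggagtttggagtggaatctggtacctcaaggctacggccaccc
Cd22: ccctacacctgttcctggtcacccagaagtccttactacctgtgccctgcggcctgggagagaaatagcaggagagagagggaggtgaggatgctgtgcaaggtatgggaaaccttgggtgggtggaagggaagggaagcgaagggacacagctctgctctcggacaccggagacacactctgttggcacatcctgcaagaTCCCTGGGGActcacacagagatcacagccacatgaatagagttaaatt
In Cd79a the looser EBF1 motif began 176 bases and the PU.1 motif 140 bases before the start. In Cd22 the EBF1 motif began 48 bases before the start, and the looser spelling overlaps it on both strands. Promoter sequences were at hand for 6 of the 9 genes, with 9 start sites. Of these 9 promoters, 1 held the EBF1 motif, 3 the looser spelling, 2 the PU.1 motif, 1 the E-box CAGCTG and 0 the octamer ATTTGCAT. Over all 32851 promoters of the same length these shares were 11.8%, 18.1%, 23.3%, 13% and 1.60%. A match is a run of letters and not a measured site.

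The surface genes were all lower in lung but to different extents. Ms4a1 (CD20, chr19:11249679-11266149), a membrane protein of mature B cells, had 37.6 FPKM in spleen and 17.4 in lung, a log2 ratio of -1.11 (-1.26 to -0.97). Cd22 (chr7:30865404-30880342), an inhibitory lectin that dampens receptor signals, was at 14.4 and 9.28 FPKM, with a log2 ratio of -0.63 (-0.83 to -0.43). Ms4a1 was 2.16-fold and Cd22 1.55-fold lower, and the interval of Cd22 overlaps that of Cd79b but not that of Ms4a1. Relative to Cd79a in the same library, Ms4a1 stood at 0.467 in spleen and 0.572 in lung.

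Cr2 and Fcer2a encode CD21 and CD23, which are often read side by side because follicular B cells carry CD23 and marginal zone B cells have much CD21 and little CD23. Cr2 (chr1:195136811-195176880), the complement receptor, had 8.68 FPKM in spleen and 4.14 in lung, with a log2 ratio of -1.07 (-1.28 to -0.86). Fcer2a (chr8:3680280-3694174), the low-affinity receptor for IgE, was at 17.2 and 3.97 FPKM, 4.34-fold lower, with a log2 ratio of -2.12 (-2.70 to -1.55). The intervals of the pair do not overlap, and Fcer2a was at 1.99 times the level of Cr2 in spleen and at 0.960 times in lung, where counting did not separate their levels. The Fcer2a value has more than the usual uncertainty. It has 7 RefSeq-tied transcripts of 885 to 2242 nt, and its lung value stands for anything from 31.6 to 95.0 reads, depending on the transcript. Its RefSeq span also shares 642 bases with Trappc5, a subunit of a vesicle tethering complex, which had 20.7 FPKM in spleen and 9.49 in lung, 2.18-fold lower. The kit does not mark strand, so reads from the shared bases cannot be assigned. Without Fcer2a, 5 of 8 genes were more than 2-fold lower and the median log2 ratio was -1.09.

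The transcription factors were the least abundant of the 9 and differed most from each other. Pax5 (chr4:44524748-44710694) had 0.772 FPKM in spleen and 0.170 in lung, about 62.4 and 15.6 reads, and its log2 ratio of -2.18 (-3.03 to -1.33) was the lowest of the 9. The span of Pax5 overlaps 3 other genes, among them 5730488B01Rik, at 0.321 and 0.202 FPKM. Whether reads were shared with these genes was not examined. Ebf1 (chr11:44618100-45008096) was at 2.76 and 2.70 FPKM, about 91.9 and 102 reads, with a log2 ratio of -0.03 (-0.46 to 0.39), the highest of the 9. The intervals of Pax5 and Ebf1 do not overlap, and Ebf1 stood at 3.57 times Pax5 in spleen and at 15.9 times in lung. On the FPKM scale Ebf1 alone had an interval that includes 0. Its ratio lay at percentile 50.1 of the genes in the range of level, against percentiles from 7.35 to 27.8 for the other 8. When the libraries were scaled to a list of 12 T cell genes, the log2 ratio of Ebf1 became 0.15, while the other 8 stayed below 0 under each of the 4 planned scalings. Relative to Cd3e, Cd79b and Cd22 came near 0, at -0.12 and -0.16.

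Ebf1 is also expressed by mesenchymal cells such as fibroblasts and fat cell precursors, and markers of such cells differed between these libraries. All 8 genes of a fibroblast list were higher in lung, 7 of them more than 2-fold, with a median log2 ratio of 5.55 and a summed level of 0.320 FPKM in spleen and 164 in lung. In spleen 4 of the 8 were listed at 0 and the highest were Col1a1 (0.129 FPKM), Dcn (0.122) and Col1a2 (0.0391), whereas in lung Col1a1 was at 5.94, Dcn at 22.2, Col1a2 at 13.4 and Mgp at 116. Of 8 pericyte and smooth muscle genes, 4 were listed at 0 in lung, among them the markers Pdgfrb, Rgs5 and Cspg4, which were at 0 in spleen as well. Notch3, another marker, was at 0 in spleen and 0.198 FPKM in lung, about 18.2 reads. Tagln (2.17 and 2.28 FPKM) and Acta2 (0.979 and 2.01) were the highest in spleen, Des was at 0 and 1.49, and Myh11 at 0.0151 and 0. This list had 2 genes more than 2-fold higher, or 3 with at least 3 reads credited to each gene. Its median log2 ratio was 0.04, and its summed level was 3.16 FPKM in spleen and 5.98 in lung. The part of fibroblast RNA in the Ebf1 value was not tested.

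**Figure D2:**
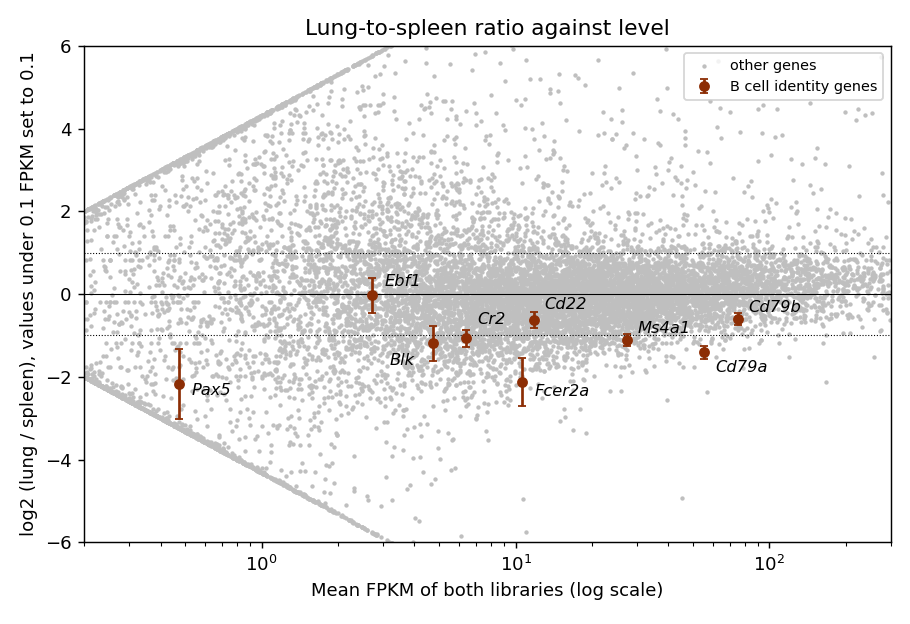
log2 ratio of lung to spleen (FPKM under 0.1 set to 0.1) against the mean FPKM of both libraries (log scale) for the B cell identity genes (large points with exact 95% binomial intervals) and other genes (small points, drawn only within the range of the axes). Dotted lines mark 2-fold. Of the 9 genes, 6 lie below the lower dotted line and Ebf1 lies on the line of equal levels.

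Across the 9 genes the log2 ratios spanned 2.15 units with an SD of 0.70, while the robust SD over the genes in the range of level was 0.99. The order of levels was similar in the tissues. Cd79b, Cd79a and Ms4a1 were the highest of the 9 in both libraries and Blk, Ebf1 and Pax5 the lowest, and only Fcer2a moved past others, from a level above Cd22 and Cr2 in spleen to a level behind these genes in lung. In lung the Poisson intervals of Cr2 (3.67 to 4.64 FPKM) and Fcer2a (2.77 to 5.60) overlap, that of Blk (2.26 to 3.64) overlaps the interval of Fcer2a, and that of Ebf1, which ends at 3.27, overlaps the interval of Blk, so these neighbors are not separated there even by counting. In spleen the intervals of Cd79a (75.6 to 85.5) and Cd79b (84.7 to 96.5) overlap at their ends, and those of Cd22 (13.1 to 15.7) and Fcer2a (14.4 to 20.5) overlap too. The quotient of the highest to the lowest gene was 117 in spleen and 352 in lung. Cd79a and Cd79b made up 66.0% of the summed FPKM of the 9 genes in spleen and 69.0% in lung, and this sum was 259 FPKM in spleen and 131 in lung, 1.98-fold lower.

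Set against Cd3e in the same library, the B cell genes remained small in both tissues. Cd79b was at 17.6% of Cd3e in spleen and 16.2% in lung, nearly the same share. Cd79a went from 15.7% to 8.22%, Ms4a1 from 7.32% to 4.70% and Fcer2a from 3.36% to 1.08%. Cd22 was at 2.80% and 2.51%, Cr2 at 1.69% and 1.12%, Blk at 1.28% and 0.781% and Pax5 at 0.150% and 0.0460%. Ebf1 alone was at a higher share in lung, 0.732% against 0.537%. Cd3e was itself lower in lung (log2 ratio -0.48), and relative to it the median of the 9 log2 ratios was -0.64. Relative to the median level of the T cell list, 276 FPKM in spleen and 259 in lung, it was -1.03. All 12 genes of that list were within 2-fold, with ratios from -0.55 to 0.31. The highest in spleen were Cd2 (912 and 977 FPKM), Cd3g (902 and 1103) and Lck (823 and 654), and Cd28 (91.9 and 113.9) had the highest ratio.

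A further 63 genes of the B lineage were grouped in 6 lists. Some of these genes, such as Foxo1, are also expressed by T cells, so their levels cannot be read as those of B cells. The part of T cells in the values of these lists was not tested. In lung 18 of the 63 genes (28.6%) were more than 2-fold lower and 12 (19%) more than 2-fold higher, or 17 and 12 with at least 3 reads credited to each gene. The median log2 ratio of the 63 was -0.47. The share higher was near the 18.5% of genes in the range of level of the identity genes, of which 17.5% were lower. Over all listed genes 11.7% were lower and 11.0% higher by that margin, which is the background for each list below. The split moved with the scale. Rescaling to TPM, which lowers log2 ratios by 0.43, gave 30 lower and 8 higher, a pseudocount of 1 FPKM gave 11 and 11, the T cell list gave 15 and 12, and equal Cd3e, which raises log2 ratios by 0.48, gave 12 and 18. Of the 63 genes, 28 had a ratio between the lowest and the highest of the 9 identity genes, 8 lay below and 27 above.

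The list closest to the identity genes in function, mostly other surface proteins of B cells, had 8 of 12 genes lower in lung, 2 of them more than 2-fold, and a median of -0.54. Ly6d had 145 FPKM in spleen and 80.1 in lung, whereas Cd37 was at 295 and 296 and Cd72 at 62.3 and 75.6. Fcrla, an Fc receptor-like protein of B cells, was at 6.45 and 11.2 and had the highest ratio of the list.

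Genes of signaling behind the receptor, many of which myeloid cells share, had a median of 0.20. Of 13 genes, 1 was more than 2-fold lower (Bank1, at 19.7 and 7.13 FPKM) and 3 were more than 2-fold higher. Over the genes in the range of level of the identity genes these shares were 17.5% and 18.5%. The 3 were Fcgr2b, the inhibitory Fc receptor, at 7.01 and 85.9 FPKM, the kinase Lyn at 17.2 and 35.7, and the phospholipase Plcg2 at 5.54 and 11.9. Ptpn6 (211 and 150 FPKM), Cd81 (132 and 164) and Dapp1 (40.8 and 24.1) were the highest in spleen. Macrophage genes differed in the same direction as these 3. None of 12 macrophage genes was lower in lung, except Csf1r and Mrc1 after rescaling to TPM, and 9 were higher by more than 2-fold, with a median log2 ratio of 2.21, a summed level of 690.2 FPKM in spleen and 27542 in lung and 0 of 12 at 0 in either library. Lyz2 was at 376 and 24947 FPKM, C1qb at 129 and 560.3, Csf1r at 43.8 and 50.1, and Chil3 at 17.4 and 1161. The 9 identity genes were lower in lung, and the part of macrophage RNA in the signaling genes was not tested.

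Transcription factors of B cells had a median of -1.07. More than 2-fold lower were 7 of 12 genes, against 11.7% of all listed genes and 17.5% of those in the range of level of the identity genes. Foxo1, which T cells also express, had 91.2 FPKM in spleen and 45.2 in lung, just past 2-fold at a log2 ratio of -1.01. Irf8 had 34.5 and 21.2, and Tcf3, which acts with Ebf1, had 26.3 and 10.7. Spi1, which encodes PU.1 of myeloid and B cells, was at 11.6 and 44.2, and Tcf4 at 1.89 and 7.08, and these were more than 2-fold higher. Outside the rule for named genes, Spib (9.17 and 0.692 FPKM) and Bcl11a (3.09 and 0.158, about 4.61 reads in lung) stood out after the values were seen as the lowest of the list. Both are also used by plasmacytoid dendritic cells. Of 8 genes of those cells, 2 were more than 2-fold lower and 2 more than 2-fold higher, with a median log2 ratio of 0.18. None was at 0 in spleen and 1 was in lung (Klk1, at 2.46 FPKM in spleen), and the summed level was 104 FPKM in spleen and 177 in lung. Bst2 was at 42.9 and 54.8 FPKM, Ly6c2 at 30.7 and 103.7, Pacsin1 at 16.2 and 2.53, and the defining Siglech at 2.78 and 1.71. Tcf4, given above as higher in lung, is also a marker of these cells but was not in this list of 8. The part of plasmacytoid dendritic cells in Spib and Bcl11a was not tested.

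Genes of other stages of the B cell's life were split. Among 10 plasma cell genes, 4 were more than 2-fold lower and 4 more than 2-fold higher in lung, with a median of 0.31. With 3 reads allowed in each library 3 were lower, without Tnfrsf17. Jchain, which links secreted immunoglobulin, had 67.5 FPKM in spleen and 11.4 in lung, and Mzb1, a chaperone of antibody-forming cells, had 21.6 and 4.26. Jchain was 5.90-fold and Mzb1 5.06-fold lower, which lies within the counting intervals of Pax5 and Fcer2a. The other genes in the count of 4 were Fkbp11 (2.01 and 0.161 FPKM, about 10.9 reads in spleen) and Tnfrsf17 (0.639 and 0). With 3 reads credited in lung Tnfrsf17 was 1.52-fold lower, which takes its about 4.02 reads in spleen as exact. Fkbp11 and Tnfrsf17 were named after their values were seen. Xbp1, in contrast, was at 86.5 and 128 FPKM. Prdm1 was 2.77-fold higher in lung from 5.79 FPKM in spleen, with Irf4 at 6.57 and 16.2, Sdc1 at 0.508 and 2.42 and Derl3 at 1.28 and 4.52. Prdm1 and Irf4 are also expressed by effector Tregs, whose part in these values was not tested.

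Genes of the germinal center had a median of -0.71. Of 8 genes, 3 were more than 2-fold lower, 1 was higher by that margin, and 4 were listed at 0 in lung. Fas (71.9 and 46.9 FPKM), S1pr2 (8.10 and 5.05) and Bcl6 (5.27 and 2.48) were the highest in spleen, and Basp1 (1.70 and 4.49) was the 1 higher in lung. Of 8 genes of early precursors, 1 was more than 2-fold lower and 2 more than 2-fold higher, with a median of 0.0, and Igll1, Rag1 and Rag2 were listed at 0 in both libraries. Vpreb3 was at 7.35 and 6.47 FPKM, Vpreb1 at 1.90 and 2.73, and Dntt at 0.673 and 0. Cd93, which endothelial and myeloid cells also express, was at 0.135 and 1.93, and Vpreb2 was at 0 and 1.15. With 3 reads credited in spleen Vpreb2 was 2.19-fold higher, which takes its about 7.47 reads in lung as exact. Symbols of 12 immunoglobulin constant genes matched no listed symbol and were not analysed here.

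**Figure D3:**
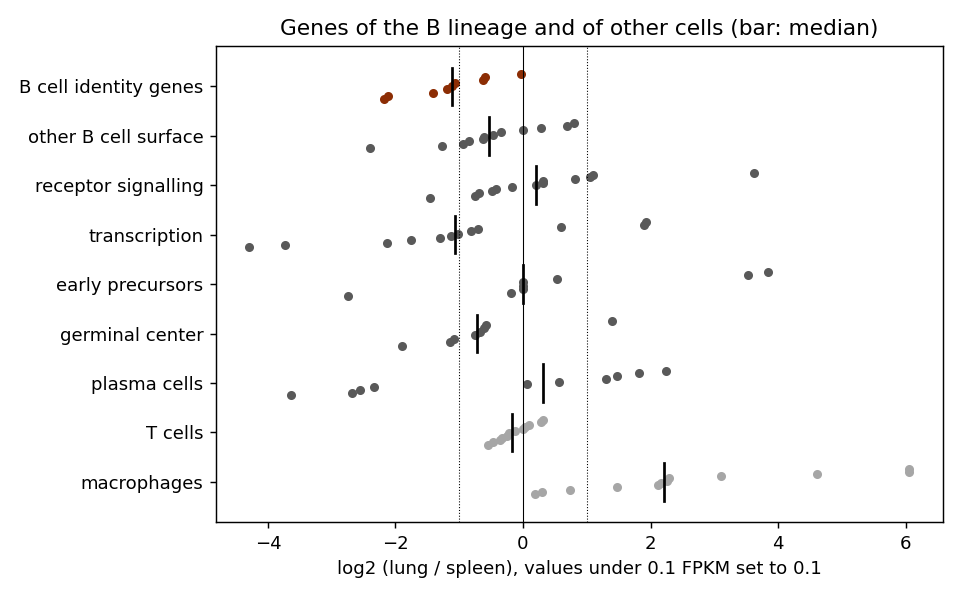
log2 ratio of lung to spleen (FPKM under 0.1 set to 0.1) of each gene (points) in the B cell identity genes, in 6 lists of other B lineage genes, and in T cell and macrophage genes, with the median of each list as a bar and dotted lines at 2-fold. The identity genes have a median of -1.11, the T cell genes lie within 2-fold with a median of -0.18, and the macrophage genes all lie above 0 with a median of 2.21, although Csf1r and Mrc1 would not after rescaling to TPM.

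Cr2 and Fcer2a are also made by follicular dendritic cells, the stromal cells of B cell follicles. Of 6 genes of those cells, 2 were more than 2-fold lower and 3 more than 2-fold higher in lung, with a median log2 ratio of 0.65 and a summed level of 22.4 FPKM in spleen and 83.0 in lung. Mfge8 was at 12.2 and 47.7 FPKM, Clu at 5.12 and 2.34, Coch at 2.37 and 0.112, and Cxcl13 at 1.72 and 24.1. The remaining genes were Enpp2, at 0.801 and 8.71, and Madcam1, at 0.159 in spleen and at 0 in lung. Madcam1 had only about 1.62 reads in spleen, too few to compare the tissues. Their part in the Cr2 and Fcer2a values was not tested.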

How the data were processed

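Bulk RNA-seq of GFP+CD4+ cells was analysed in 1 splenic and 1 lung library, grouped by the labelled tissue. Unstranded SMART-Seq HT libraries gave single-end reads of 75 bases. The authors aligned these to mm10 with TopHat2 2.1.1, Bowtie2 2.2.8 and SAMtools 0.1.18 and deposited FPKM from Cuffdiff 2.2.1. The annotation and the scaling between libraries are not given in the sources used here.

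Lung FPKM was divided by splenic FPKM after a floor of 0.1, and 2-fold was the mark for counts. Reads were estimated from FPKM and the effective length of GENCODE M21 transcripts tied to RefSeq, found for 23016 symbols (94.5%), with a fragment mean of 200, an SD of 80 and a shortest fragment of 75, and the median transcript where there were several. One read corresponded to 0.0964 FPKM per effective kb in spleen and 0.0849 in lung. Of genes with 1 transcript length and 1 to 10 reads, 74.6% and 76.9% lay within 0.1 of a whole number.

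The members and lists were chosen with earlier results of these data known. Genes named were the 9 members, the 3 highest in spleen and the highest ratio of each list, and B lineage genes more than 2-fold higher. Others, such as Siglech, Madcam1 and Spib, were named outside this rule. Other floors, pseudocounts, scalings and fold marks were tried as alternatives. Steps were tested on simulated data. The software was scipy 1.17.1, pandas 2.3.3, numpy 2.4.6 and matplotlib 3.10.9 under Python 3.11.15.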

Additional observations from a re-analysis of the deposited data

How the results depend on the processing

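With 1 library per tissue no library could be left out. No paired analysis was possible because each tissue has 1 library and the comparison comes from no test. Of 81 values of single B cell identity genes under 9 alternatives, 66 stayed within their counting interval and 15 left it. The 66 include values that could not move, so their number does not measure stability. All 9 genes were above the main floor and had more than 3 estimated reads in each library. A lower floor and a minimum of 3 reads therefore left every value unchanged by construction, and a floor of 1 FPKM could change only Pax5. Only Ebf1 changed sign, to 0.15 with the T cell list, within its interval, and rescaling to equal Cd3e raised it further, to 0.45. The median log2 ratio of the 9 genes, -1.11, became -0.91 with a pseudocount of 1 FPKM, -1.54 after rescaling to TPM, -1.29 with equal upper quartiles and -0.94 when scaled to a median log2 ratio of 0 over the T cell list. TPM lowered all ratios by 0.43 and upper quartiles lowered them by 0.18, while the T cell list raised them by 0.18. The count of 6 genes more than 2-fold lower became 3 with that pseudocount, which shrinks low values, 8 with TPM, 4 with the T cell list and 2 relative to Cd3e, and was 2 past 4-fold. Over all listed genes the share more than 2-fold lower was 11.7%, against 6.06% with that pseudocount, 18.7% with TPM, 10.4% with the T cell list and 8.64% relative to Cd3e. Beyond the identity genes, 18 B lineage genes were more than 2-fold lower, which became 11 with that pseudocount (with 11 higher), 30 with TPM (and 8 rather than 12 higher), 29 past 1.5-fold and 9 past 4-fold. The median relative to Cd3e, -0.64, was -1.03 relative to the median level of the T cell list, which is another summary of that list than its median log2 ratio. This alternative was chosen after seeing the data, as were the counts relative to Cd3e, the values without Fcer2a and the looser EBF1 motif. Pax5 is limited by depth, at about 15.6 reads in lung, and with a floor of 1 FPKM its ratio is 0.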
